A study of Triticum aestivum with 18 samples.

Results

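In wheat roots grown without potassium fertiliser, 91 of the 61179 wheat probe sets on the array (0.149%) stood apart from every other root sample of the experiment. They were selected on the measured values themselves. A probe set entered when its intensity on all 3 no potassium arrays lay above, or on all 3 below, all 15 other arrays, when the means of its log2 intensities differed by at least 0.7, and when the higher of its linear means was 200 or more. The 70 probe sets on the high side (0.114% of 61179) are called risers here and the 21 on the low side (0.0343%) fallers. These are names for the side on which the no potassium arrays lay, and the difference between no potassium and the other arrays is given as a description with no test, because it chose the members.

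Potassium is the main positively charged ion inside plant cells, where it balances charge, keeps up turgor and serves enzymes of protein synthesis and carbon metabolism. Roots take it up through channels and high-affinity carriers, in Arabidopsis chiefly the channel AKT1 and the carrier HAK5. When potassium runs short, Arabidopsis roots respond through calcium sensors and their partner kinases, reactive oxygen and the hormones ethylene and jasmonate. None of these roles can be assigned to single members here, because almost all of them carry no gene name.

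The samples were roots of the winter wheat cultivar Hereward, collected at booting in 2011 on the Broadbalk field experiment at Rothamsted. There were 6 groups of 3 arrays. Roots without potassium, without magnesium, low in nitrogen or without phosphate came from plots with no such fertiliser since 1843, per the labels. Roots without sulfate came from plots with none since 2000, and control roots had a full nutrient supply. The labels call the 3 samples of a group biological replicates, and the series text speaks of a single control plot. If a group came from 1 plot, the p-values below measure the spread within it, and the treatment and its plot cannot be told apart. The arrays measured 3' ends of RNA from 500 ng of total RNA of whole root samples, so fewer cells of a type and less RNA per cell cannot be told apart.

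The deposited values were MAS5 intensities, the brightness of a probe set on a linear scale, with a trimmed mean that was equal on all arrays. Array medians ran from 53.3 to 62 in no potassium roots, against 53.6 to 72.4 on the other 15 arrays. The no potassium arrays also had the brightest single values, 39060 to 41930, and the lowest 75th percentiles, 405 to 419. Control replicate 3 lay with them at 40850 and 405, while the 14 remaining arrays had 26470 to 36540 and 420 to 441. The part of these intensity distributions in the member values was not tested beyond the rescaling given at the end. The ratio of the 5' to the 3' ubiquitin control probe set, a measure of RNA integrity, was 1.20 to 1.32 in no potassium roots and 1.09 to 1.31 on the others. Other transcripts spread more, with actin at 1.36 to 2.48 against 0.09 to 3.62 and ef1a at 1.69 to 8.97 against 0.67 to 34.2. The Sucsyn ratio, 0.00108 to 0.00195 in no potassium roots, lay below the control arrays at 0.00221 to 0.00398. The remaining transcript ratios overlapped the control. The part of RNA integrity in the member values was not tested. Leaf markers were present in every sample, mostly as transcripts of the chloroplast gene rbcl, and their 33 probe sets for 4 genes summed to 42900 to 50550 in no potassium roots, against 29960 to 47870 on the others. Of the 11 of these that were tested, limma called 0 between no potassium and control roots, where 0.14% of all tested probe sets were called higher and 0.0642% lower. The sum came almost wholly from 2 rbcl probe sets, at 23660 to 26400 and 17530 to 22540 in no potassium roots. On the other arrays they had 16430 to 25930 and 11500 to 20020. The brightest probe sets of the other leaf genes lay within the range of the other arrays. PsbO had 265 to 508.5 in no potassium roots against 167.5 to 997.7 elsewhere. PsbP had 307.5 to 540.6 against 126.5 to 822.2, and petC 125.2 to 322 against 117.3 to 472.1. Of the genes listed for roots, only PCS1 and the peroxidase PER1 had a name on this array, and neither is shown to be specific to roots. PCS1, which makes metal-binding phytochelatins, was at 704 to 809 in no potassium roots against 516 to 1126 elsewhere. The 2 probe sets of PER1 summed to 233 to 308 against 166 to 374. Lists of root aquaporins and germin-like proteins matched 0 genes. Grain genes, 9 probe sets of 6 genes, summed to 175 to 247 in no potassium roots against 158 to 322 elsewhere. The part of leaf RNA in the member values was not tested.

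Risers differed from the other 15 arrays by a median of 1.02 on the log2 scale, and 36 of the 70 differed by 2-fold or more. Their mean intensity ran from 206 to 17883 in no potassium roots, with a median of 1736, against 14.1 to 10425 with a median of 756 on the other arrays. The gap between the lowest no potassium array and the highest other array was narrow for many: its median was 0.21 log2, it reached 0.5 in 13 risers and was under 0.1 in 19. Under this rule fallers were fewer than risers and closer to the others, but the number turns with the limits: with no minimum level 99 risers and 168 fallers met it. Their median difference was -0.78 log2, 4 of the 21 reached 2-fold, and 0 had a gap of 0.5, with 9 under 0.1. The heat map of all members shows the contrast between the wide margin at its top and the thin one among fallers.

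**Figure D1:**
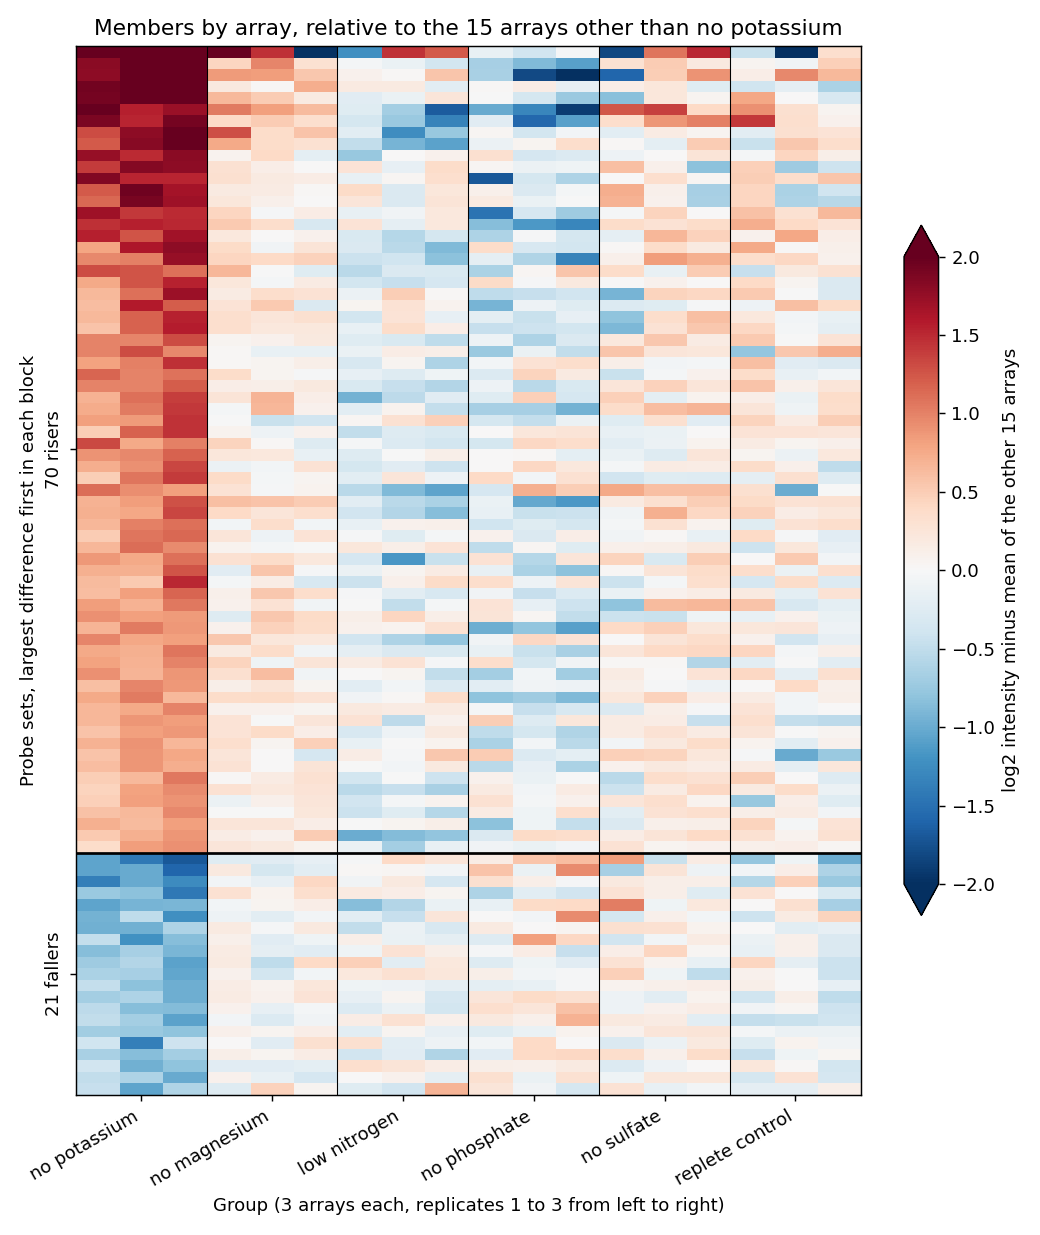
All 91 members (rows; 70 risers above, 21 fallers below) on the 18 arrays (columns, 3 per group, no potassium at the left and replete control at the right), coloured by log2 intensity minus the mean of the 15 arrays other than no potassium. The no potassium columns are red among risers and blue among fallers by construction, in shades that differ by array. Among the other columns, low nitrogen had the lowest mean of the 5 groups in 27 risers and no phosphate in 31. No share over all tested probe sets is given for these counts.

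The member with the largest log2 difference, Ta.27235.1.S1_at, is dim. It had intensities of 115, 215 and 308 on the no potassium arrays, against a lowest value of 0.908, a median of 8.76 and a highest of 45.1 on the other 15. All other arrays lay near the bottom of the scale, so its 21.9-fold difference (4.45 log2) is uncertain in size. The neighbouring probe set Ta.27235.1.S1_s_at, which can hybridise with several transcripts, differed by 0.77 log2 and was not separate.

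The next members were brighter. Ta.937.1.A1_at had intensities of 263, 522 and 722 in no potassium roots, against 35.3 to 148 on the other arrays, a 6.15-fold difference (2.62 log2). Ta.21108.1.S1_at had 296, 583 and 729 in no potassium roots and 21.5 to 167 elsewhere (2.55 log2). For both, replicate 1 of no potassium was the lowest of its group by a wide margin, and still above every other array. Ta.26981.2.S1_a_at was steadier, at 727, 959 and 935 in no potassium roots against 122 to 316 on the other arrays (4.56-fold, 2.19 log2). Its gap of 1.20 log2 to the nearest other array, a no magnesium one, was among the widest of the set.

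Only 2 risers have a gene in the platform annotation. Ta.113.1.S1_at, assigned to LOC543226, had intensities of 2100, 2307 and 3162 on the no potassium arrays. The other 15 arrays had a lowest value of 311, a median of 556 and a highest of 947, and the groups averaged 759 ± 122 in no magnesium, 544 ± 98.1 in low nitrogen, 439 ± 110 in no phosphate, 512 ± 178 in no sulfate and 649 ± 264 in control roots (SD, n = 3 each). The 4.48-fold difference (2.16 log2) left a gap of 1.15 log2 to the highest other array, control replicate 1. TaAffx.106421.1.S1_at, assigned to LOC606346, was tight, at 1524, 1637 and 1579 in no potassium roots against 226 to 916 on the other arrays (2.84-fold, 1.5 log2). The annotation gives both genes by running number, with no function.

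Several risers came in groups that share an array cluster, so the 70 do not stand for 70 transcripts. Probe set names place them in 60 clusters, and 9 of these hold 19 risers. Cluster Ta.975 gave all 3 of its probe sets. Ta.975.1.S1_a_at had 9689, 13129 and 12716 in no potassium roots, against a lowest of 2089, a median of 3800 and a highest of 5582 on the other arrays (1.67 log2), and the other members of the cluster differed by 1.61 and 1.58 log2. The 15 other arrays did not separate by group for any of the 3, with adjusted p from 0.793 to 0.873 in the F-test among the other 5 groups described below. Cluster Ta.26144 gave 2 members, Ta.26144.1.A1_s_at with 3247, 2592 and 2587 in no potassium roots against 280 to 1332 elsewhere, and Ta.26144.1.A1_at with 1488, 1213 and 1280 against 165 to 714.

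Of the other probe sets of these clusters, which the rule did not take, 25 in 17 riser clusters passed the filter on low values. They differed in the risers' direction in 22 cases, by over 0.7 log2 in 12, and 0 of the 25 were separate from all other arrays, with a median difference of 0.65 log2. Cluster Ta.5145 shows the limit of the separation criterion. Its member Ta.5145.4.S1_at had 3805, 2276 and 2583 in no potassium roots against 208 to 2012 elsewhere (1.86 log2). Its neighbours Ta.5145.1.S1_at and Ta.5145.1.S1_x_at differed by more, 2.35 and 2.33 log2, with mean intensities of 4782 and 4365 in no potassium roots against 1414 and 1277 on the others, but overlapped at least 1 other array. Names with _x, _s or _a before the final _at mark probe sets that can pick up related transcripts, including copies on the other genomes of hexaploid wheat. They made up 34.3% of risers and 19% of fallers against 29.7% of all tested probe sets.

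The brightest riser was Ta.1574.1.S1_s_at, at 16948, 16906 and 19794 in no potassium roots. The other arrays had 5660 at the lowest, 9201 at the median and 12605 at the highest, so no potassium roots were 2.09-fold higher (1.06 log2) with a gap of 0.42 log2. Ta.22711.1.S1_at had a far narrower margin for a larger difference. It had 2042, 2853 and 3356 in no potassium roots against 348 to 2013 elsewhere (1.71 log2), a gap of 0.02 log2 to no magnesium replicate 1. At the lower end of the rule, the risers Ta.4071.1.S1_x_at and Ta.15067.1.S1_at differed by 0.70 and 0.71 log2. Ta.22381.1.S1_at (0.69) and TaAffx.142843.1.A1_at (0.67) met every other criterion and stayed outside. Without the minimum difference 361 probe sets would have been risers and 243 fallers, so the limit of 0.7 cuts through a continuous range.

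**Figure D2:**
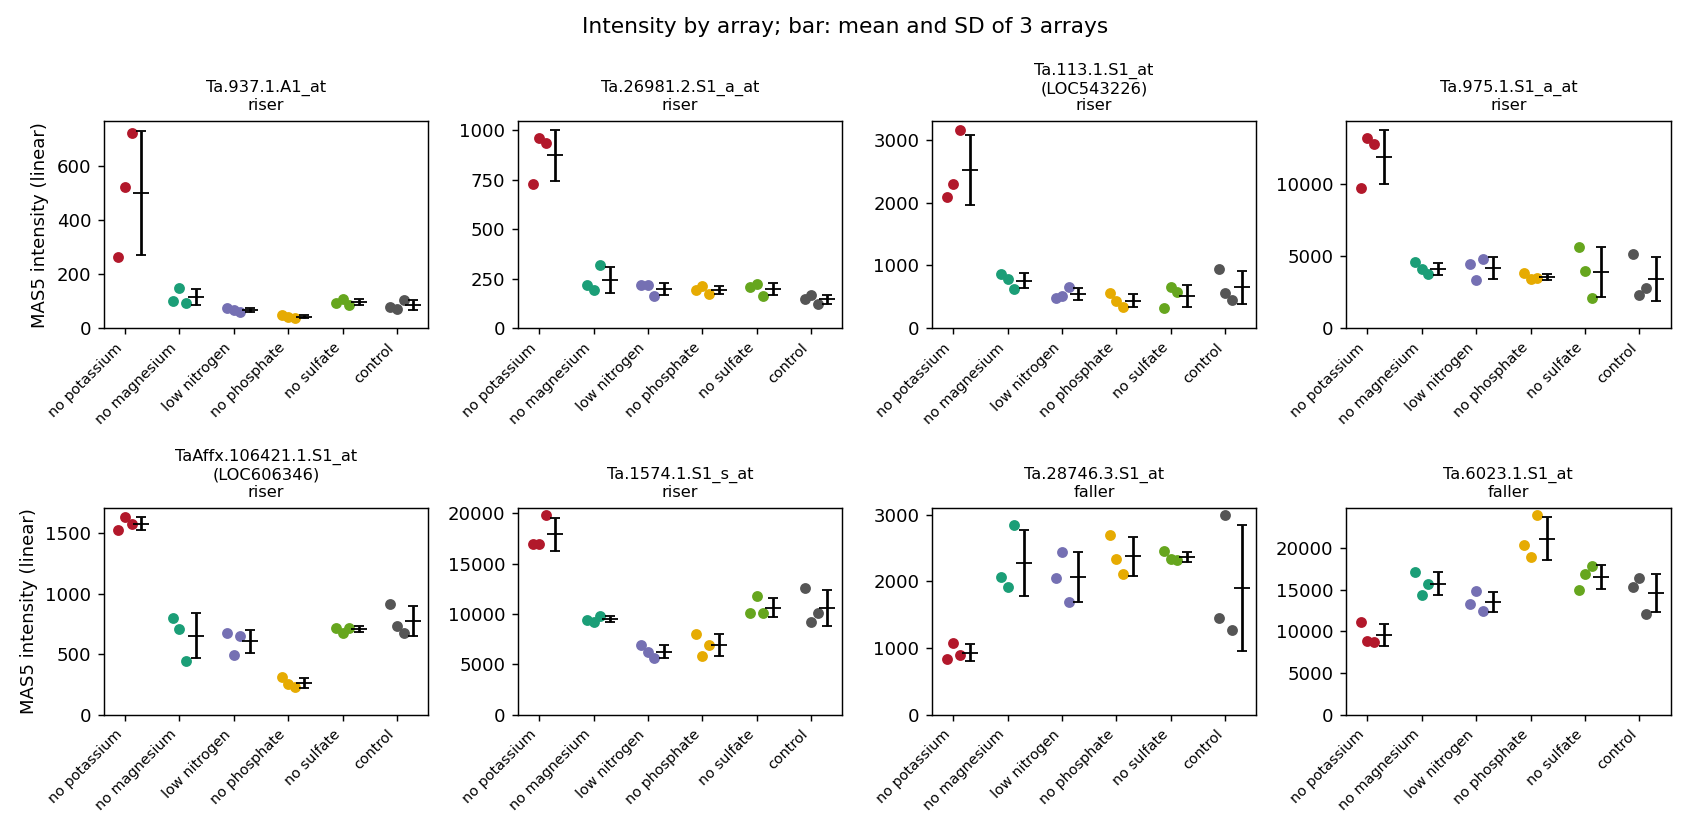
Linear MAS5 intensity (vertical axes from 0) of 6 risers and 2 fallers in each array, by group along the horizontal axis, no potassium at the left and control at the right. Points are arrays and bars the mean and SD of 3. No potassium roots lie apart in every panel. Ta.937.1.A1_at, TaAffx.106421.1.S1_at, Ta.1574.1.S1_s_at and Ta.6023.1.S1_at also differ among the other groups (limma F-test, adjusted p under 0.05).

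Among fallers, Ta.20930.1.S1_at had the largest difference. It had intensities of 226, 174 and 145 in no potassium roots, against a lowest of 235, a median of 461 and a highest of 834 on the other arrays (-1.39 log2). The gap was only 0.06 log2, to control replicate 3. Ta.28207.1.S1_at had 428, 439 and 296 in no potassium roots against 557 to 1709 elsewhere (-1.21 log2), with the widest margin of these examples at 0.34 log2. Ta.28746.3.S1_at had 829, 1070 and 894 in no potassium roots against 1275 to 2989 elsewhere (-1.21 log2). Control replicates 1 and 3 of that probe set, at 1443 and 1275, were the nearest to the no potassium arrays, while control replicate 2 was the highest array of all at 2989.

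Its cluster does not show the same size of difference. The 4 other probe sets of Ta.28746 differed by -0.39 to -0.04 log2, and the brightest of them, Ta.28746.3.S1_a_at, averaged 13270 in no potassium roots against 13670 on the other arrays. Over all faller clusters, 14 tested neighbours in 7 clusters all differed in the fallers' direction, by a median of -0.36 log2, with 2 beyond 0.7 and 1 separate. The 21 fallers lie in 21 different clusters.

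The next fallers by size were TaAffx.119486.1.S1_at (-1.0 log2), with 301, 285 and 188 in no potassium roots against 329 to 639 elsewhere, and Ta.3751.1.S1_at (-0.97), with 197, 214 and 217 against 228 to 830. TaAffx.78709.1.S1_at (-0.90), TaAffx.15676.1.S1_at (-0.84) and Ta.7436.3.S1_at (-0.84) followed. The only faller with a gene, Ta.24748.1.S1_at assigned to LOC543060, had 606, 558 and 424 in no potassium roots, against a lowest of 674, a median of 861 and a highest of 1064 on the others. At -0.71 log2 it stood just inside the rule, with Ta.16355.1.S1_at (-0.70), while TaAffx.49997.3.S1_s_at and Ta.5524.2.S1_x_at, both at -0.697, stayed outside. The brightest faller, Ta.6023.1.S1_at, had 11153, 8866 and 8776 in no potassium roots against 12074 to 24029 elsewhere (-0.75 log2).

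The 3 no potassium arrays were not alike among themselves. Replicate 3 was the highest of them in 45 of 70 risers and the lowest in 13 of 21 fallers, and replicate 1 was the lowest in 45 risers and the highest in 13 fallers. The median difference of replicate 3 minus replicate 1 was 0.37 log2 in risers and -0.35 in fallers, against 0.03 over all 34255 tested probe sets. Leaving out an array loosens the separation criterion. Without no potassium replicate 1, 158 probe sets met the rule as risers and 270 as fallers. Without replicate 2 these counts were 80 and 46, and without replicate 3 they were 63 and 48. Without control replicate 3 there were 75 risers and 41 fallers. The nearest array of another group was most often a control one, in 25 risers and 7 fallers, and control replicate 3 was nearest in 5 of those 7.

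Set against control roots alone, which the rule also used, the risers differed by a median of 0.96 log2 and the fallers by -0.70, against -0.02 over all tested probe sets. This is a description, since the same arrays chose the members.

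Applying the same rule to each other group in turn shows how the no potassium set compares in number. Low nitrogen roots gave 70 probe sets above and 148 below all other arrays, and no phosphate roots 191 above and 213 below. No magnesium roots gave 6 and 0, no sulfate roots 18 and 1, and control roots 2 and 2. No potassium was thus between the large and the small sets. Its excess of probe sets above over those below turned round with no minimum level and without no potassium replicate 1, as given above, and separation alone, at any level and size, was met by 400 above and 422 below. These counts were not tested against each other.

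The members' levels in the other 5 groups were compared with each other by limma. Group means were fitted on log2 intensity over all 18 arrays with limma, and p-values were adjusted over 34255 probe sets. The rule shaped these values in 2 ways. In risers the other arrays are bounded from above by the no potassium arrays and not from below, and a group that is low pulls down the mean of the other 15 and helps a probe set reach 0.7. In fallers both hold the other way round. The members' shares are therefore descriptions, and their distance from the background share is not a result. To avoid this, the rule was also applied to no potassium and the 3 deficiencies outside a contrast. Neither group of the contrast then chose the probe sets. This setting was added after the data were seen. It still used the same control arrays, of which replicate 3 lay with no potassium in its brightest value and 75th percentile. It is therefore not independent support. All contrasts below share the same 3 control arrays and are not independent of each other.

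An F-test asked for any difference among no magnesium, low nitrogen, no phosphate, no sulfate and control roots. It called 25 of 70 risers (35.7%) and 4 of 21 fallers (19%), against 9.72% of all tested probe sets. The smallest adjusted p among risers were those of Ta.5645.2.S1_x_at (adjusted p = 0.000151), Ta.5645.2.S1_a_at (0.000399) and LOC606346 (0.000668). All 70 risers were tested, among them Ta.27235.1.S1_at, which passed the filter on low values only through the no potassium arrays. Of the 25 calls, 17 held in every alternative processing run. Among fallers they were Ta.6023.1.S1_at (adjusted p = 0.0237), TaAffx.15676.1.S1_at (0.0389) and Ta.14939.1.S1_s_at (0.0394), and 0 of the 4 held in every alternative.

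Among the other deficiencies, no phosphate roots had the most calls at the risers. Of the 70 risers 21 (30%) fell and 0 rose in no phosphate roots, against 5.32% of all tested probe sets lower and 4.19% higher, and the median was -0.27 log2 against 0.05 over all tested. At an unadjusted p under 0.05, 30 risers were lower and 2 higher. No share over all tested probe sets is given at that limit, here or for the unadjusted counts below. Those counts therefore cannot be set against a background. The falls ran from -2.06 to -0.52 log2, and 10 of the 21 held in every alternative of the fit. Chosen without the no phosphate and control arrays, 88 probe sets met the rule as risers, 62 of them members, and limma called 22 of the 88 (25%) lower and 0 higher in no phosphate roots against control, with a median of -0.27 log2.

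LOC606346 was one of the 10. It averaged 261 ± 42.2 in no phosphate roots, with arrays at 308, 250 and 226, against 774 ± 126 in control roots, with arrays at 916, 734 and 673 (SD, n = 3 each). It fell by 1.57 ± 0.19 log2 (SE; limma adjusted p = 0.000431), and the groups did not overlap. No magnesium (653), low nitrogen (605) and no sulfate (706) lay nearer to the control, so that its level was highest without potassium and lowest without phosphate.

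The 2 members of Ta.5645 gave the same order at the ends. Ta.5645.2.S1_x_at had 563, 637 and 520 in no phosphate roots against 1299, 1314 and 1026 in control roots, a fall of 1.08 ± 0.13 log2 (limma adjusted p = 0.000447), and 1772, 2274 and 2008 in no potassium roots. Ta.5645.2.S1_a_at fell by 0.88 ± 0.12 log2 (limma adjusted p = 0.00109). In low nitrogen roots these 2 differed from control by 0.03 and 0.02 log2, neither passing the test.

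Larger falls came with more spread. Ta.5145.4.S1_at had 388, 316 and 208 in no phosphate roots against 1464, 974 and 807 in control roots, and fell by 1.83 ± 0.34 log2 (limma adjusted p = 0.00529). TaAffx.91995.1.A1_at had 563, 222 and 311 in no phosphate roots against 1753, 835 and 698 in control roots, and fell by 1.57 ± 0.34 log2 (limma adjusted p = 0.011). In low nitrogen roots these probe sets averaged 461 and 389, differences of -1.30 and -1.43 log2 that did not pass the test (limma adjusted p = 0.136 and 0.0868).

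Both members of Ta.26144 fell in no phosphate roots, by 1.36 ± 0.24 and 1.35 ± 0.22 log2 (limma adjusted p = 0.00371 and 0.00268). The largest fall of the 21, Ta.21108.1.S1_at at -2.06 ± 0.52 log2 (adjusted p = 0.0218), rests on dim values of 54.8, 24.6 and 21.5 in no phosphate roots against 94.1, 167 and 134 in control roots. Ta.937.1.A1_at fell by 1.03 ± 0.30 log2 (adjusted p = 0.0422), also at low intensity, a call lost in 7 of 12 alternatives. Leaving out control replicate 3 or no phosphate replicate 3 lowered the count of 21 to 10.

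Fallers lay on the other side. In no phosphate roots 4 of 21 (19%) rose and 0 fell, against 4.19% of all tested probe sets higher and 5.32% lower. The fallers' median was 0.24 log2, against 0.05 over all tested. Ta.6023.1.S1_at had 20373, 18990 and 24029 in no phosphate roots against 15333, 16448 and 12074 in control roots, a rise of 0.54 ± 0.13 log2 (limma adjusted p = 0.0159). Ta.20930.1.S1_at rose by 1.05 ± 0.27, Ta.22656.1.S1_at by 0.77 ± 0.18 and TaAffx.105995.1.S1_at by 0.58 ± 0.16 log2 (limma adjusted p = 0.0259, 0.0141 and 0.032). For Ta.6023.1.S1_at, Ta.22656.1.S1_at and TaAffx.105995.1.S1_at the no potassium roots differed from control by only -0.60, -0.31 and -0.49 log2. The levels of the other groups thus brought these probe sets inside the rule. All 4 calls were lost without control replicate 3, and likewise without no phosphate replicate 3. Chosen without the no phosphate and control arrays, 76 probe sets met the rule as fallers, 18 of them members. Limma called 33 of the 76 (43.4%) higher and 2 (2.63%) lower in no phosphate roots against control, with a median of 0.66 log2. Control arrays of these probe sets were free to lie as low as those of no potassium. Fallers chosen in this way for the other contrasts had raised medians too, with 0 called higher. These were 0.25 log2 in no magnesium, 0.14 in low nitrogen and 0.43 in no sulfate roots, against 0.04, 0.03 and 0.04 over all tested. A raised median was thus not particular to no phosphate roots.

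**Figure D3:**
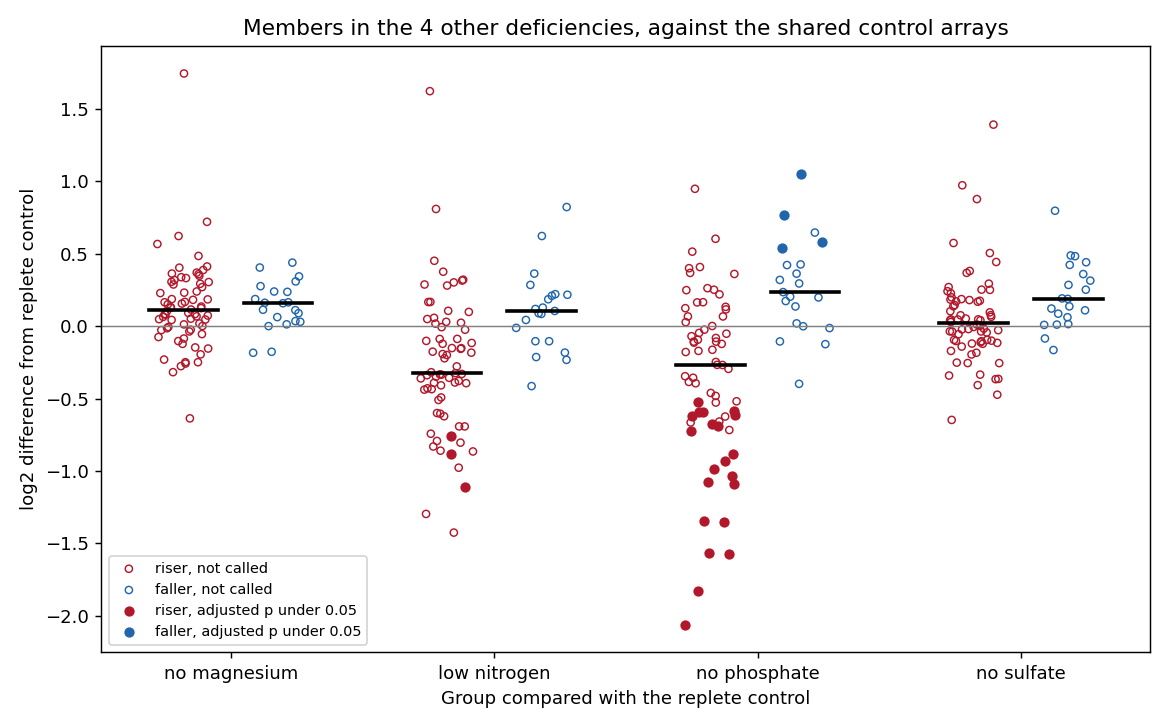
Log2 difference from replete control (vertical axis) of each member in the 4 other deficiencies (horizontal axis), risers in red at the left of each pair and fallers in blue at the right. Filled points have an adjusted p under 0.05 and black bars are medians; filled points are seen under low nitrogen (3 risers) and no phosphate (21 risers, 4 fallers).

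In low nitrogen roots the risers had a median of -0.32 log2 against 0.03 over all tested probe sets. Limma called 3 of 70 lower (4.29%) and 0 higher, where 0.342% of all tested probe sets were lower and 0.073% higher, and 23 risers were lower and 2 higher at an unadjusted p under 0.05. Ta.15067.1.S1_at had 2175, 2371 and 2518 in low nitrogen roots, below all control arrays at 5362, 4582 and 5345. It fell by 1.11 ± 0.16 log2 (limma adjusted p = 0.00338), a call that held in every alternative, and its no phosphate arrays (3541, 5651 and 5537) overlapped the control. No potassium roots differed from control by 0.48 log2 at this probe set, which met the rule only with the low nitrogen arrays in the mean.

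The brightest riser, Ta.1574.1.S1_s_at, fell under both. It averaged 6250 ± 631 in low nitrogen roots, 6917 ± 1070 in no phosphate roots and 10615 ± 1781 in control roots (SD, n = 3 each). The falls were 0.76 ± 0.12 and 0.62 ± 0.12 log2 (limma adjusted p = 0.0105 and 0.00759), and the low nitrogen call was lost without control replicate 1 or low nitrogen replicate 3. TaAffx.13704.1.A1_s_at also fell in low nitrogen roots, by 0.88 ± 0.19 log2 (limma adjusted p = 0.0487), a call lost in 9 of 13 alternatives. Of the fallers 0 were called in low nitrogen roots by limma, with 2 higher at an unadjusted p under 0.05 and a median of 0.11 log2. Chosen without the low nitrogen and control arrays, 118 probe sets met the rule as risers, and 4 of them (3.39%) were called lower and 0 higher. Of the 251 tested fallers chosen that way 4 (1.59%) were called lower and 0 higher.

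No member passed the test in no magnesium or no sulfate roots. In no magnesium roots limma called 0 of 70 risers and 0 of 21 fallers, against 0.0525% of all tested probe sets higher and 0.00876% lower. Unadjusted p under 0.05 were found for 5 risers higher, 1 riser lower and 1 faller higher. In no sulfate roots it called 0 risers and 0 fallers, against 0.0175% higher and 0.0% lower over all tested. There 5 risers and 5 fallers were higher and 1 riser lower at an unadjusted p under 0.05. Chosen without either group of the contrast, 5 of 117 risers were called higher and 1 lower in no magnesium roots, and 0 of 120 in no sulfate roots, with 0 of 134 and 0 of 108 fallers. A missing call does not show that the levels were equal.

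Among risers the lowest group mean was that of no phosphate in 31, low nitrogen in 27, control in 9, no sulfate in 3 and no magnesium in 0 members. The highest was that of no magnesium in 31, no sulfate in 17, control in 12, no phosphate in 7 and low nitrogen in 3. Among the 21 fallers control roots had the lowest mean of the 5 in 10 and the highest in 0. No share over all tested probe sets is given for these counts, so they cannot be set against a background. The rule also shaped them, since a low group helped a riser, and a high group a faller, to reach 0.7. Within risers, levels over the 15 other arrays were only weakly related: taking 1 probe set per cluster, the median Pearson correlation of 1770 pairs was 0.2, and 0.06 once group means were removed. It was 0.12 for the 210 faller pairs. These pairs share the same 15 arrays and their scaling.

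The rule was applied again after 2 other scalings of the arrays. Quantile normalization, which gives every array the same distribution, kept 65 of the 70 risers and 12 of the 21 fallers, and 81 and 12 probe sets met the rule in all. Centring each array on its 75th percentile kept all 70 risers and 8 fallers, with 93 and 8 meeting the rule. This centring adds the same 0.07 log2 to the difference of every probe set, so in that difference risers could only gain and fallers only lose. Separation could move either way, because each array was shifted by its own 75th percentile. The median difference of no potassium minus the other arrays over all tested probe sets was -0.05 log2 as deposited, 0.01 after quantile normalization and 0.03 after centring. Under each of them 15 fallers stayed separate from all other arrays, more than the 12 and 8 that still met the rule.

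Of the members described, LOC543226, LOC606346 and the members in the Ta.975, Ta.26144 and Ta.5645 clusters kept to the rule under both scalings. Ta.20930.1.S1_at, Ta.28207.1.S1_at and Ta.28746.3.S1_at also did. LOC543060, Ta.16355.1.S1_at, Ta.3751.1.S1_at, Ta.22656.1.S1_at and TaAffx.105995.1.S1_at met it under neither. Quantile normalization alone cost Ta.15067.1.S1_at, TaAffx.13704.1.A1_s_at and TaAffx.119486.1.S1_at their place, and centring alone Ta.6023.1.S1_at, TaAffx.78709.1.S1_at, Ta.7436.3.S1_at and Ta.14939.1.S1_s_at.

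**Figure D4:**
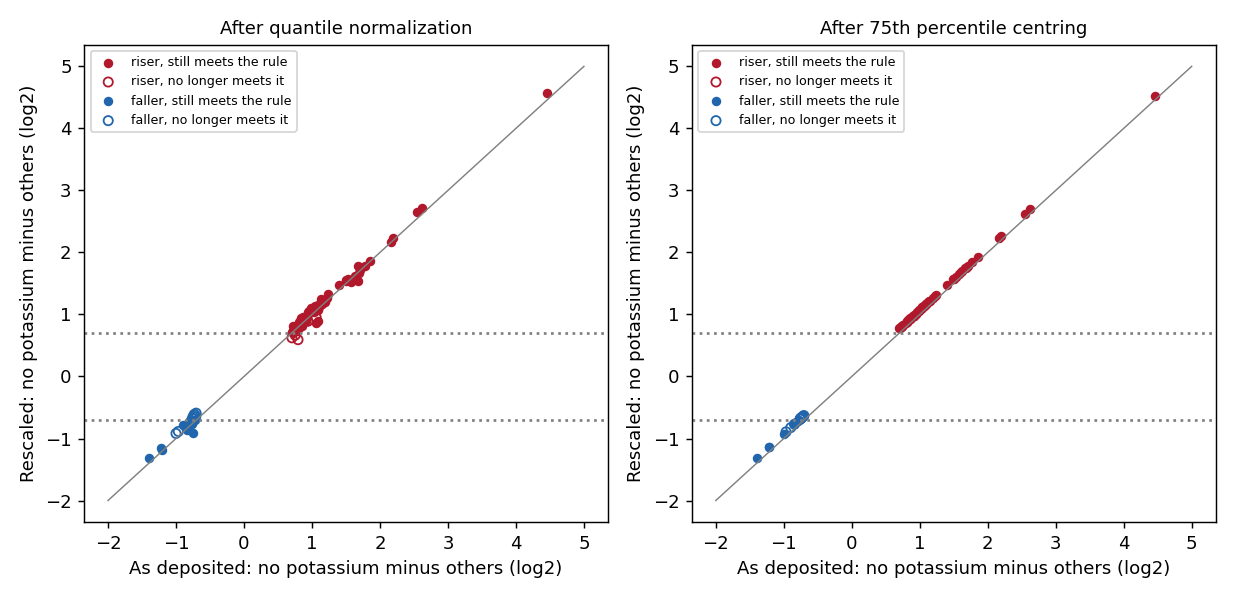
Log2 difference of no potassium minus the other 15 arrays for each member, as deposited (horizontal axes) and after rescaling (vertical axes: quantile normalization at the left, 75th percentile centring at the right). Open points no longer meet the rule, dotted lines mark 0.7 and -0.7, and the grey line marks equal values; in the right panel all members lie the same 0.07 above the grey line, risers and fallers alike.

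Names were too few for a reading by function. The platform annotation gives 1 gene to 1273 wheat probe sets, 771 genes in all, and to 3 of the 91 members. Of 26 gene lists drawn up for potassium transport, signalling, hormones, nutrient uptake, defence, cell wall and tissue markers, 11 matched any annotated gene, 30 genes together, and 0 held a member. The potassium transport list matched 0 genes, so its response is not described here. In the high and low sets alike, all 70 risers and all 21 fallers passed the filter on low values, 69 of the 70 risers also on the other 15 arrays alone.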

How the data were processed

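Root RNA of 18 samples was hybridised to Affymetrix Wheat Genome arrays. The authors deposited 1 linear intensity per probe set and array, made with MAS5 in Affymetrix Expression Console per the submitters' processing notes, with versions and scaling target not given in the sources used here. The mean without the top and bottom 2% was 500.1 on each array. Of 61290 probe sets, 111 controls were left out. Intensities were turned to log2 with no constant. The 34255 probe sets at or above the array median on at least 3 of 18 arrays were fitted by group with limma 3.58.1 in R 4.3.3 (lmFit, eBayes with intensity trend, 12 residual and 4.39 prior degrees of freedom), 2-sided, with Benjamini-Hochberg adjustment and calls at an adjusted p under 0.05. The fit was tested on simulated data. Clusters are the leading part of a probe set's name. Figures used matplotlib 3.10.9 in Python 3.11.15.

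The members, gene lists and tests were chosen with earlier results of these data known. Members named in the text are those with a gene, the 8 with the largest difference per direction, those next to the limit, those with the 3 smallest F-test p-values and the brightest; the named members of the calls under low nitrogen and no phosphate, and cluster neighbours, were picked after their values were seen. Alternatives were 2 other scalings, other limits and filters, no intensity trend, the replicate number as a block and leaving out each array; choosing members without the groups of a contrast was added after the data were seen. Detection calls were not used here, and the number of arrays limits the precision.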

Additional observations from a re-analysis of the deposited data

How the results depend on the processing

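Of 70 risers as reported, 36 remained in number with a minimum difference of 1 log2, 46 without probe sets named _x_at, _s_at or _a_at and 60 with a minimum mean of 400, while 99 met the rule with no minimum level, 81 after quantile normalization and 93 with arrays centred on the 75th percentile. The 21 fallers became 4, 17, 15, 168, 12 and 8 under these 6 settings in the same order. Leaving out each array in turn gave 63 to 158 risers (158 without no potassium replicate 1) and 19 to 270 fallers (270, 46 and 48 without no potassium replicates 1, 2 and 3, and 41 without control replicate 3). The F-test called 18 to 29 risers and 0 to 6 fallers with 1 array left out. It called 1 faller after 75th percentile centring, 1 with no filter, 0 with no intensity trend and 2 with the replicate block. Low nitrogen called 1 to 3 risers with 1 array left out (1 without control replicate 1 or low nitrogen replicate 3) and 1 with no intensity trend. No phosphate called 10 to 21 risers and 0 to 5 fallers (0 without control replicate 3 or no phosphate replicate 3, and 2 without control replicate 1). No sulfate called 0 to 1 fallers (1 without control replicate 2), and the other counts stayed at 0 with 1 array left out. Choosing members without the groups of the contrast, a setting added after the data were seen, gave other and larger sets than the 70 and 21. In these, no magnesium called 6 of 117 risers (5 higher, 1 lower). Low nitrogen called 4 of 251 tested fallers, all lower, and no phosphate 35 of 76 fallers (33 higher, 2 lower). Over all tested probe sets no magnesium called 0.0525% higher and 0.00876% lower. The shares were 0.073% and 0.342% for low nitrogen and 4.19% and 5.32% for no phosphate. Leaving out an array loosens the rule, and the cause of the changes was not tested.

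Over named and other single members, 1156 values stayed the same, 192 lost their call, 5 moved and 0 reversed. The 1156 include values that were not calls, so they are not a count of calls kept. Same-numbered arrays of different groups had correlations of their deviations from -0.11 to 0.17 (median -0.01). Different-numbered ones had -0.15 to 0.14 (median -0.01), with 5 of 45 and 5 of 90 pairs over 0.1. These values showed no clear pairing by number, and they cannot show whether samples were collected or handled in matched sets. With the replicate block, no phosphate called 18 risers and 4 fallers, low nitrogen 3 risers and the F-test 24 risers.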
